A study of Mus musculus with 9 samples.

Results

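The comparison described here is that of CD8 single-positive (CD8SP) thymocytes without Brd1 against CD8SP thymocytes with it, in mice whose T cell receptors were not fixed by a transgene. It rests on 2 of the 9 arrays of the series, 1 array per genotype. Levels are log2 processed signals minus the 75th percentile of the array. A gene was compared where at least 1 probe was well above background on at least 1 of both arrays, which held for 20644 of 49080 genes and unnamed probes.

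Brd1 encodes a bromodomain and PHD finger protein that serves as a scaffold for MYST-family histone acetyltransferases such as Kat7 (HBO1), which acetylate histone H3. CD8SP thymocytes arise when double-positive (DP) cells, which carry both CD4 and CD8, are positively selected on MHC class I. They then stop rearranging their receptor genes, gain egress receptors and leave the thymus. A cycling population that carries CD8 before the DP stage, the immature single-positive cells, shares the CD8+CD4- surface phenotype.

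Control mice were Brd1+/+, Tie2-Cre and conditional knockout (CKO) mice were Brd1flox/flox, Tie2-Cre, all C57BL/6 and 8 weeks old. Both genotypes therefore carried the Cre transgene, which is driven by the Tie2 promoter and is active in endothelial and haematopoietic cells from early development. Cells were sorted by surface markers, and the labels of these arrays give CD8SP without naming TCRβ. A second CD8SP pair of the same genotypes carried the OT-I transgenic receptor, restricted by MHC class I, and came from mice of 14 weeks. With 1 array per group no error can be given for a level, and no p-value is given for a difference between both arrays.

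The control array lay on slide 1 and the CKO array on slide 2, and in this pair the slide cannot be told apart from the genotype, whereas both OT-I arrays lay on slide 2. Of the probes, 21686 were well above background on the control array and 22971 on the CKO array. The 75th percentile of the signal was 90.7 and 118, and replicate spots of a probe on the same array had a median SD of 0.0829 and 0.0696 on the log2 scale. A signal below background was raised to the lowest level that counted as well above background, -2.62 on the control array and -3.06 on the CKO array, and such a difference is given as a bound. The OT-I control array of slide 2 was also put in place of the control of slide 1. For genes past 2-fold that were followed through the processing alternatives, a value that changed sign with it is given. Other named differences were not followed in this way, and some of them change sign with that control. For 2488 genes with several detected probes the probes differed by a median range of 0.23. Of 231 such genes past 2-fold, 220 had all probes on the same side of 0, which counts the sign alone. For some genes given below as past 2-fold, another detected probe fell short of it. Among them were E2f7 (-0.74), Nlrc5 (0.62), Sp140 (0.32), Skil (0.51), Fyb (0.67) and Nfatc1 (0.79).

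The sorted population had the receptor transcripts of its label. Cd8a was at 4.60 in control and 4.70 in CKO cells, against -1.23 in control CD4SP cells. Cd8b1 was at 5.64 and 5.73, against 1.67 in control CD4SP cells. Cd4 was at 3.50 and 3.28, below its level of 6.54 in control CD4SP and 6.22 in control DP cells but well above background. These coreceptor levels differed between genotypes by 0.10 for Cd8a, 0.08 for Cd8b1 and -0.23 for Cd4.

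Across the pair, 1453 genes were more than 2-fold higher in CKO cells (7.04% of those compared) and 1933 were more than 2-fold lower (9.36%). The median difference over all genes compared was -0.13, with quartiles at -0.54 and 0.32, and 188 genes were more than 4-fold higher against 268 lower. Taking the 75th percentile over probes detected on all arrays moved the median difference to 0.01 and the split to 1931 higher and 1440 lower, so that 57.3% rather than 42.9% of the genes past 2-fold were higher. Quantile normalization gave a median of -0.02. For this reason gene groups are described below by their shift, the group's median difference minus the median of all genes compared, which multiplying an array by a constant does not alter. Among the 4425 brightest genes measured on both arrays 9.72% were past 2-fold, 114 higher and 316 lower, against 17.5% of the 4426 dimmest.

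**Figure D1:**
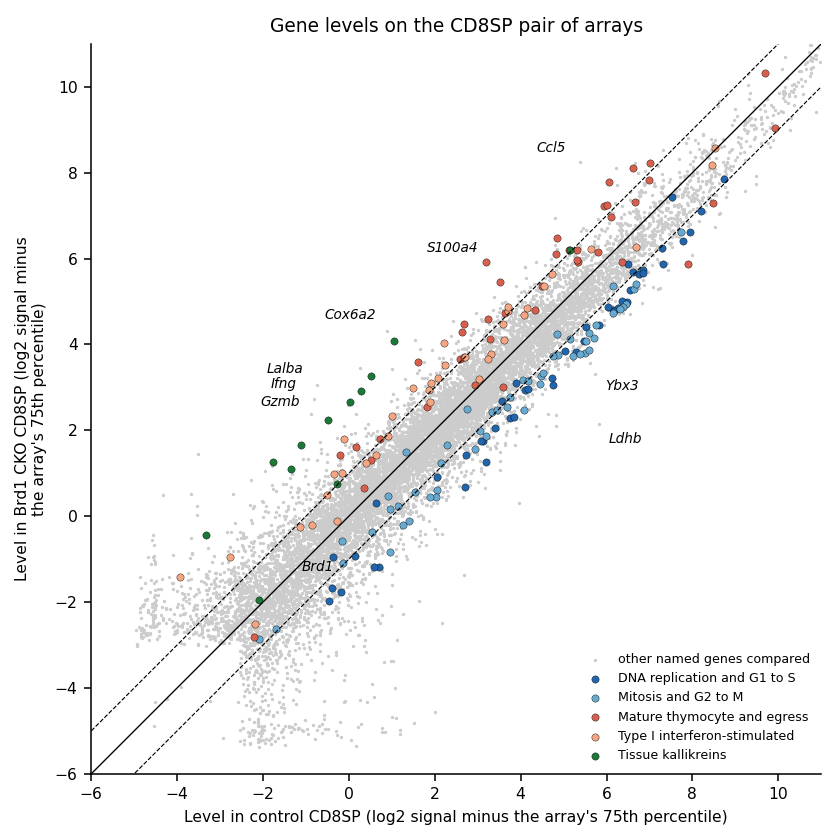
Levels of named genes in control CD8SP cells (horizontal axis) and Brd1 CKO CD8SP cells (vertical axis), both as log2 signal minus the 75th percentile of the array; the solid line marks equality and the dashed lines a 2-fold difference. Genes of DNA replication and mitosis lie along or under the lower dashed line, and maturation, interferon-stimulated and kallikrein genes lie mostly above the solid line.

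The Brd1 probe itself was higher on the CKO array, at -0.73 against -1.37 in control cells (log2 difference 0.64), and the other pairs gave 0.61 (OT-I), 0.46 (DP) and 0.10 (CD4SP). The files do not give the position of this probe against the floxed exons, and its level is therefore no check of the deletion. Among 12 compared genes of Brd1 and its acetyltransferase partners, 0 were past 2-fold in either direction, and their shift was -0.02. The catalytic subunits Kat7 and Kat6a differed by -0.33 and 0.45, and the paralogous scaffolds Brpf1 and Brpf3 by -0.18 and -0.12. Ing5, a subunit that binds methylated histone H3, was at 0.91 and 0.21. Of the 20 measured genes nearest to Brd1 on its chromosome, 10 on each side, 0 were more than 2-fold higher and 2 were lower, with a median of -0.27. The lower neighbours were Zbed4 (-1.13) and the cell cycle gene Gtse1 (-1.07).

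Of the lists with at least 10 compared genes, those of the cell division cycle had the lowest medians. Of 47 genes of DNA replication and the G1 to S transition, 39 were more than 2-fold lower in CKO cells and 0 were higher, with a median of -1.31 and a shift of -1.19. Cdc6, which loads the replicative helicase onto origins, was at 2.70 in control and 0.68 in CKO cells, a difference of -2.02. Gins2, a subunit of the active helicase, went from 3.19 to 1.27, and Cdc45, its partner, from 0.59 to -1.19. These helicase genes were 3.43-fold (Cdc45) to 4.06-fold (Cdc6) lower in CKO cells. The E2F family, which switches on the genes of S phase or, in its atypical members, switches them off, showed E2f1 at -1.48, E2f2 at -1.39, the atypical E2f8 at -1.39 and the atypical E2f7 at -1.87. Among enzymes of nucleotide supply for replication, Rrm1 differed by -1.41 and Tk1 by -1.37. The sliding clamp Pcna was at 8.20 and 7.11. Gins3 stood outside the pattern, at 7.52 and 7.44.

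Mitotic genes were lower as well. Of 52 compared, 33 were more than 2-fold lower and 0 higher, 51 had a difference below 0, and the shift was -1.04. The cyclins that drive entry into mitosis were at 5.60 and 3.86 for Ccnb1 (-1.74), at 6.44 and 4.95 for Ccnb2 (-1.49) and at 5.51 and 3.81 for Ccna2 (-1.70). The kinase Plk1 differed by -1.51, the kinase Aurka by -1.56, the spindle motor Kif2c by -1.78 and the kinetochore protein Spc24 by -1.62. Mki67, the proliferation marker, differed less, at 4.85 and 4.25. The exception in sign was Kif23, a motor of the dividing cell's midzone, with a difference of 0.17.

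Replication-dependent histone genes, which are transcribed in S phase, had 25 of 41 more than 2-fold lower, 2 higher and a shift of -1.12. H2ac1 was at 4.43 and 1.87 (-2.56), H2bc3 at 3.07 and 1.04 (-2.02) and the linker histone H1f1 at 7.25 and 5.30 (-1.95). Histone genes of a class are near-identical, so their probes can read each other's transcripts. The 2 above 2-fold were H2bc4 (1.00) and H3c15 (1.01). G1 cyclins and cyclin-dependent kinase inhibitors stayed close to all genes, with a shift of -0.10 and 4 of 20 lower: Cdkn1c (-1.87), Cdk2 (-1.34), Cdkn2c (-1.16) and Cdk4 (-1.06). The G1 cyclins Ccnd2 and Ccnd3 differed by 0.79 and -0.21.

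**Figure D2:**
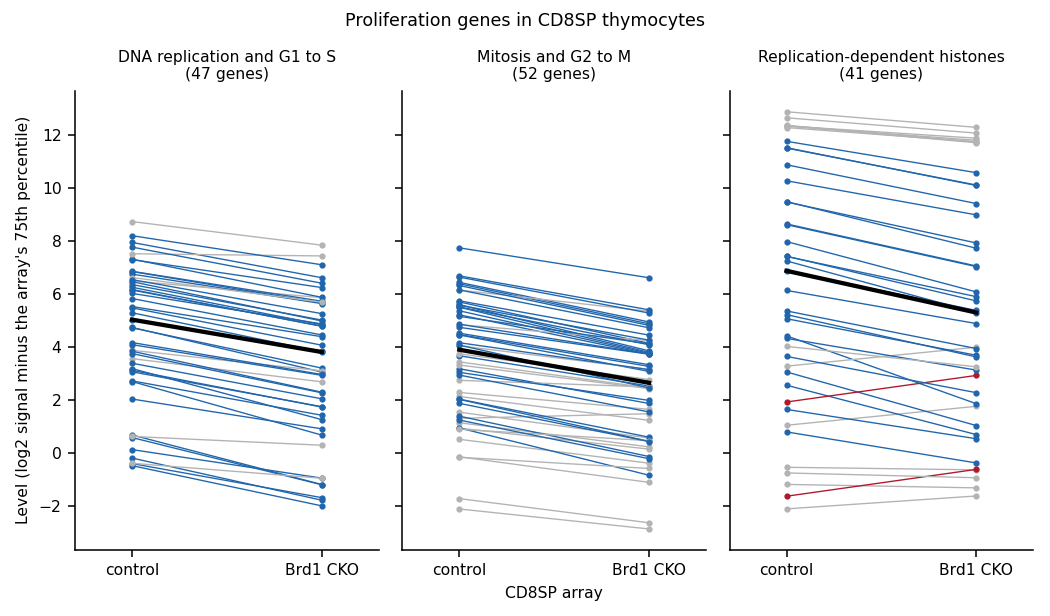
Each thin line joins a gene's level (log2 signal minus the 75th percentile of the array) on the control and the Brd1 CKO array of CD8SP cells, in blue where more than 2-fold lower, red where more than 2-fold higher and grey otherwise; the thick line joins the medians. Blue lines number 39 of 47, 33 of 52 and 25 of 41 in the panels.

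Some promoters of these genes carry motifs known from cell cycle regulation, and they are shown for the 2 replication and the 2 mitotic members with the largest differences among those whose promoter holds an E2F site or a CCAAT box. Genes on a chromosome that was left out of this choice were not eligible. E2F sites were searched on both strands as TTTCCCGC, TTTCGCGC, TTTGCCGC or TTTGGCGC, and CCAAT boxes as CCAAT, in the 250 bases before the RefSeq start of transcription (build GRCm38.p6), with a match counted also where it overlapped another motif. An E2F site was present in 10 of the 39 replication genes with a promoter entry (25.6%), against 3.98% of the promoters of all genes compared and 1.86% of all promoters. A CCAAT box was present in 30 of 44 mitotic genes (68.2%), against 40.9% of genes compared and 33.8% of all promoters. The letters TTTGAA, the cell cycle homology region of mitotic promoters, were present in 16 of 44 (36.4%), against 1218 of the 9346 genes compared that have an entry and 16.0% of all promoters. A match describes the letters and is no measure of binding. The Cdc6 stretch is chr11:98907901-98908150 on the plus strand and that of E2f7 is chr10:110745189-110745438 on the plus strand, with the E2F site in capitals. Those of Ccnb1, chr13:100786487-100786736, and Aurka, chr2:172370571-172370820, lie on the minus strand, with CCAAT boxes in capitals.
Cdc6: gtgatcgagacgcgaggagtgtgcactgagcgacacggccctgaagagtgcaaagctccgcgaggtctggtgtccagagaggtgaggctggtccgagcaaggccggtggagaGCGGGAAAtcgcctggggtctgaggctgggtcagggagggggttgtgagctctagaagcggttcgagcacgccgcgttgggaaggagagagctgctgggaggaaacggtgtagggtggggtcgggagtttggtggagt
E2f7: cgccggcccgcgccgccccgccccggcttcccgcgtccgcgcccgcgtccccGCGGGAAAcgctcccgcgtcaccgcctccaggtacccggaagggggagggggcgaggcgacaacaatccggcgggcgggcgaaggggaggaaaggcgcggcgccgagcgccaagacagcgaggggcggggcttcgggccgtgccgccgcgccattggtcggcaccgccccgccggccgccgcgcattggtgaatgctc
Ccnb1: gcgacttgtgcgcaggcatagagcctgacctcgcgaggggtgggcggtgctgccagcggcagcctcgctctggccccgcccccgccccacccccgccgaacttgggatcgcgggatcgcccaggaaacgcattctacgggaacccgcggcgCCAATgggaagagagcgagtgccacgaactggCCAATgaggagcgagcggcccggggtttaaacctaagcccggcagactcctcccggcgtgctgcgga
Aurka: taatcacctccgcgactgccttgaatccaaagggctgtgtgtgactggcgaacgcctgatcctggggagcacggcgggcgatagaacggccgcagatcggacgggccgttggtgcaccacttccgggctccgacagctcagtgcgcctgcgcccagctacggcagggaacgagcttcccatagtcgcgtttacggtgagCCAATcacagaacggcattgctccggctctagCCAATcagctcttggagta

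In both printed mitotic promoters 2 CCAAT boxes stand close together, the nearer starting 67 bases before the start of Ccnb1 and 19 bases before that of Aurka. The E2F site begins 138 bases before the start of Cdc6 and 198 bases before that of E2f7. On the arrays the same genes differed by -2.02 (Cdc6), -1.87 (E2f7), -1.74 (Ccnb1) and -1.56 (Aurka).

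Some transcripts that mark the DP stage were lower too. Of 18 compared DP-stage genes, 3 were more than 2-fold lower and 1 higher, 13 were below 0 and the shift was -0.58, and the summed intensity of the list was 1084 in control and 649.6 in CKO cells, in units of the 75th percentile. Ptcra, the invariant chain of the pre-T cell receptor, was at 4.36 and 2.11 (-2.25), Rag2 of the recombinase at 2.58 and 1.61, Rag1 at 3.95 and 3.49, and the terminal transferase Dntt at 9.60 and 8.70. The others past 2-fold were the nucleoside transporter Slc29a1 (-1.29), Mns1 (-1.08) and, higher, Ccr9 (1.00, but -0.15 against the OT-I control). The shift of the DP-stage list was -0.02 against the OT-I control. In the control CD8SP array Ptcra (4.36) and Ccnb1 (5.60) stood above their levels in control DP cells (3.84 and 4.82), whereas Rag1 (3.95) stood below its DP level of 8.07. Ptcra and most replication and mitotic genes were more than 2-fold lower in CKO cells. Rag2 (-0.97) and Rag1 (-0.46) were lower as well, Rag2 just short of 2-fold. A list of cells just after positive selection, named immature single-positive in the plot of list shifts, is distinct from the cycling cells before the DP stage. It had 3 of 15 higher, Cd69, Ccr7 and Ccr9, 0 lower and a shift of 0.46, or -0.14 against the OT-I control. In bulk RNA, fewer cells of a type and less RNA of a gene per cell cannot be told apart, and the part of immature single-positive or DP cells in the cell cycle difference was not tested.

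Notch targets and progenitor genes went both ways, with 5 of 14 more than 2-fold higher and 4 lower. Those lower were Ptcra, Lmo1 (-1.63, but 0.67 against the OT-I control), Trib2 (-1.13) and Notch3 (-1.03), and those higher included Dtx1 (3.08 and 4.59), a Notch target, Hhex (1.64) and Bcl11a (1.49), both progenitor transcription factors. Il2ra, the interleukin-2 receptor alpha chain, was below background at -2.24 in control and at -0.71 in CKO cells, a bound of 1.52, against -1.25 with the OT-I control.

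Signs of the later, mature stage pointed the other way. Of 41 compared genes of mature thymocytes and egress, 20 were more than 2-fold higher in CKO cells and 2 lower, with a median of 0.89 and a shift of 1.02. S100a4, a calcium-binding protein of mature and memory T cells, was at 3.18 in control and 5.92 in CKO cells (2.74). The interleukin-6 receptor Il6ra was at 1.61 and 3.60, S100a6 at 3.52 and 5.46, and the interleukin-7 receptor Il7r, a survival receptor of naive cells, at 2.67 and 4.48 (1.81). Klf2, the transcription factor that turns on the egress receptor genes, was at 6.06 and 7.77 (1.71). Its target S1pr1, the sphingosine phosphate receptor needed to leave the thymus, differed by 1.34. The Gimap GTPases of resting lymphocytes were compared for 7 members in this list, from 0.83 for Gimap9 to 1.65 for Gimap8. The members lower in CKO cells were Lgals1, a galectin (7.90 and 5.87, -2.03), and Anxa2, an annexin (8.47 and 7.30, -1.18).

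Quiescence factors, which hold lymphocytes out of cycle, had 8 of 25 more than 2-fold higher, 1 lower and a shift of 0.92. Slfn8 (2.43), Slfn1 (1.45) and Slfn3 (-1.07) belong to the Schlafen family and did not share a direction. The mRNA decay factor Zfp36l1 was at 2.89 and 4.35, the antiproliferative Btg1 at 7.32 and 8.53, and the forkhead factors Foxp1 and Foxo1 differed by 1.04 and 0.79.

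Receptors for chemokines and egress signals had 10 of 18 more than 2-fold higher and 0 lower, with a shift of 1.14. Ccr7, which draws selected cells to the medulla, was at 6.90 and 8.05 (1.14), and Ccr9, a thymic and gut homing receptor, at 4.88 and 5.88 (1.00, with the sign turned against the OT-I control as given above). Cxcr6 was at 3.89 and 5.35, Cxcr3 of effector and memory cells at 1.90 and 3.32, and Gpr183, the oxysterol receptor, at -1.37 and 0.57. Ccr2 and Cxcr5 were not well above background in control cells (-2.75 and -4.56) and stood at -0.37 and -0.43 in CKO cells, bounds of 2.24 and 2.19. The retention receptor Cxcr4 differed by -0.10.

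**Figure D3:**
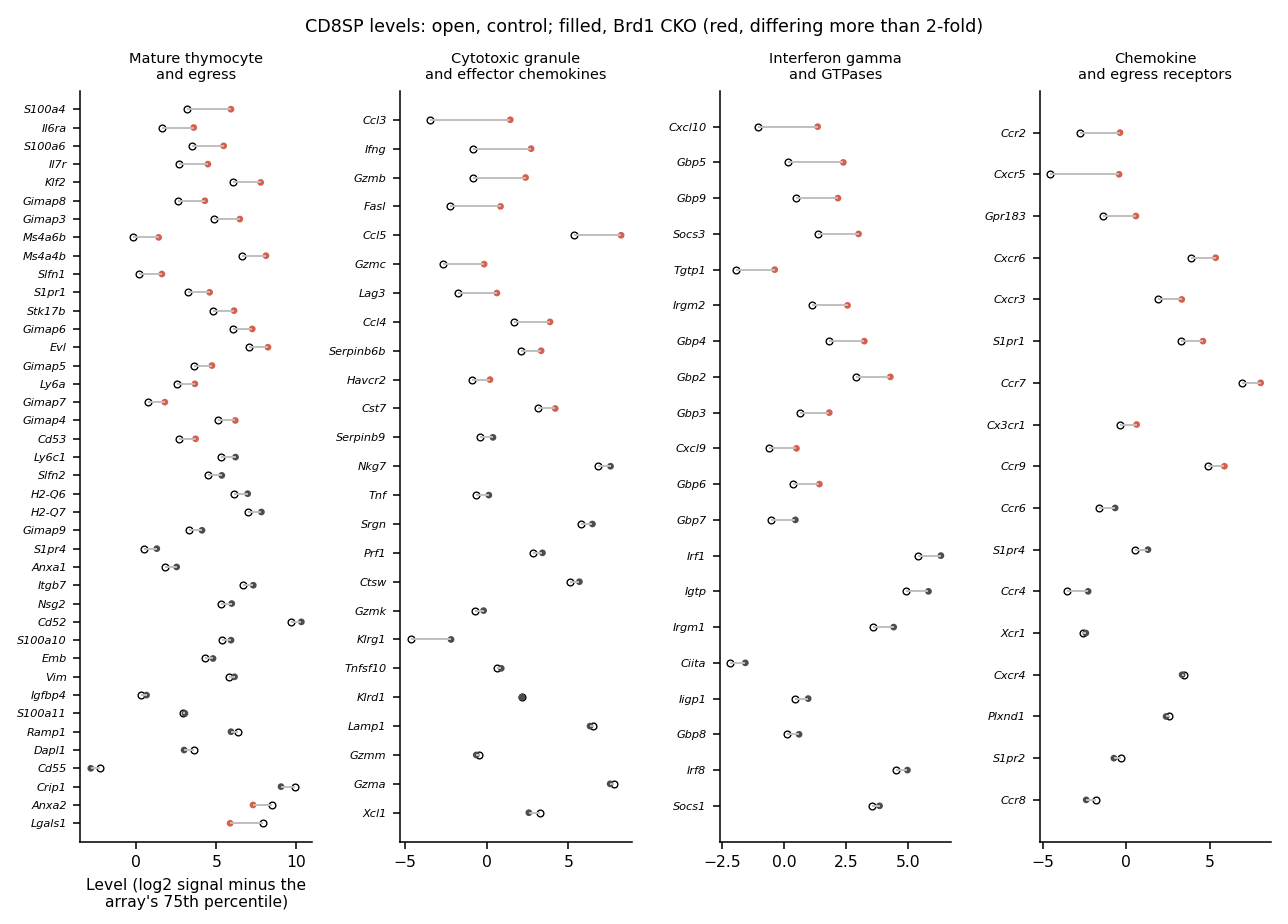
Levels (horizontal axis, log2 signal minus the 75th percentile of the array) of compared members of 4 lists in control (open points) and Brd1 CKO (filled points) CD8SP cells, with members more than 2-fold different in red; a difference is judged after values below background are raised to the floor, so a long bar such as that of Klrg1 can stay grey. Red points lie to the right of the open ones except for Lgals1 and Anxa2.

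Cytotoxic and effector genes were among the largest differences of the pair. Of 25 compared, 11 were more than 2-fold higher and 0 lower, with a shift of 0.92. Ifng, which encodes interferon gamma, was at -0.82 in control and 2.72 in CKO cells, 11.6-fold higher. Gzmb, the granzyme of activated killer cells, was at -0.87 and 2.38, 9.56-fold higher, and the chemokine Ccl5 at 5.37 and 8.25, 7.32-fold higher. The chemokine Ccl3 was below background at -3.50 in control cells and at 1.44 in CKO cells, at least 16.7-fold higher, and its relative Ccl4 was at 1.65 and 3.88. Fasl, the death ligand, was at -2.28 and 0.85 (3.12) and the inhibitory receptor Lag3 at -1.77 and 0.62 (2.39). The granule genes were not uniform, since Gzma was at 7.82 and 7.57, Prf1, the pore former, at 2.81 and 3.42, and Nkg7 at 6.80 and 7.59.

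Among 12 transcription factors of effector T cells, 4 were more than 2-fold higher and 0 lower: Bhlhe40 (2.17), Eomes (1.80), Batf (1.36) and Stat4 (1.30). Eomes, the T-box factor of memory-like CD8 cells, was at -1.17 and 0.63, whereas Tbx21 (T-bet) was at 1.21 and 1.17. Of 23 genes of memory-like and innate CD8 cells, 7 were more than 2-fold higher and 1 lower, with a shift of 0.72. Those higher included Ccl5, Eomes, Cxcr3, Il18r1 (a bound of 1.69), Fgl2 (1.37) and Itga4 (1.03), and the lower was Zbtb16 (-1.13), the PLZF factor of innate-like T cells. Cd44, the classical memory marker, was at 1.41 and 2.27, and Il2rb, the interleukin-15 receptor beta chain, at 3.39 and 3.95.

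Genes of the CD8 lineage had 2 of 12 more than 2-fold higher, Eomes and the cystatin Cst7 (1.05), and 1 lower. The lower gene was Cd7, an immunoglobulin-family surface protein, at 5.41 and 4.09 (-1.32). Runx3, which establishes the CD8 lineage, was at 0.32 and 0.79. Of 8 CD4 lineage genes, Ctla4 (2.28) and Tnfrsf4 (1.78 and 3.04) were higher and Cd200 (-1.22) lower, while Zbtb7b, the ThPOK factor of the CD4 lineage, was at 7.12 and 6.55. The regulatory T cell list had 4 of 11 higher, Ctla4, Tnfrsf4, Izumo1r (1.76) and Il2ra, but its defining factor Foxp3 was at -0.71 and -0.49 and Ikzf2 at 1.15 and 0.75. Among 25 transcription factors of the T lineage, 2 were higher, Nfatc1 (1.13) and Foxp1, and 0 lower; Tcf7 differed by -0.48, Bcl11b by 0.43 and Gata3 by 0.21.

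Both families of interferon response genes were higher. Of 37 compared genes stimulated by type I interferon, 14 were more than 2-fold higher and 0 lower, with a shift of 1.02. Ifi214, a member of the DNA-sensing PYHIN family, was at -0.10 and 1.81 (1.91), Oasl1 at 2.22 and 4.03 (1.82), and Irf7, the factor that amplifies the response, at 1.02 and 2.34 (1.32). Members without such a difference included Isg15 (5.64 and 6.21), Usp18 (3.02 and 3.20) and Ifi27l2a (8.52 and 8.57).

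The group that responds to interferon gamma, mostly GTPases of cell-autonomous immunity, had 11 of 20 more than 2-fold higher and 0 lower, with all 20 differences above 0 and a shift of 1.22. The chemokine Cxcl10 was at -1.07 and 1.34 (2.41), Gbp5 at 0.16 and 2.38 (2.22), Gbp9 at 0.45 and 2.16 (1.70), and the feedback inhibitor Socs3 at 1.35 and 2.99 (1.64). Irf1, the first factor of this response, was at 5.39 and 6.31. The interferon receptor chains Ifngr1, Ifngr2, Ifnar1 and Ifnar2 differed by 0.40, 0.31, 0.40 and 0.51.

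An interferon-stimulated response element, searched on both strands as GAAA, any 2 bases and GAAA again, was present in 12 of 25 type I interferon genes with a promoter entry (48.0%), against 3.41% of the promoters of genes compared and 2.98% of all promoters of the same length. The 250 bases before the start of Ifi214 (chr1:173535958-173536207, minus strand) and Ifit1 (chr19:34640639-34640888, plus strand), from RefSeq in build GRCm38.p6, are shown with the element in capitals, since they had the largest differences among eligible members whose promoter holds it. The same chromosome was left out of this choice.
Ifi214: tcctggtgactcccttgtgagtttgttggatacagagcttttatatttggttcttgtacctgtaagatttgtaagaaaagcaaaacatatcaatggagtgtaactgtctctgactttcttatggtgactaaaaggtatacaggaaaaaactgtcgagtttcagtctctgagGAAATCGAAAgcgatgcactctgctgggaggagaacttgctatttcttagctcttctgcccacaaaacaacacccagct
Ifit1: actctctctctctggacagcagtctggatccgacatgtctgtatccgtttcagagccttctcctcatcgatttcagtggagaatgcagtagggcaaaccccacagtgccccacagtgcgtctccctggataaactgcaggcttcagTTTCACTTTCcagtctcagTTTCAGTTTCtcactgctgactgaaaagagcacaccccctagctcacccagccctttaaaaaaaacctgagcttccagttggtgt

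The element of Ifi214 starts 79 bases before the start of transcription, and the nearer of the 2 copies of Ifit1 85 bases before it. Ifit1 was at -0.36 in control and 0.99 in CKO cells, a difference of 1.34.

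MHC class I genes and their loading machinery had 4 of 28 more than 2-fold higher and 2 lower, with a shift of 0.65. Beside H2-M3 (1.17) and the editor Tapbpl (1.16), the class I activator Nlrc5 was at 2.23 and 3.53 (1.29), H2-K1 at 8.61 and 9.67 (1.05) and the light chain B2m at 8.59 and 9.56 (0.97). The nonclassical H2-T10 was lower, at 4.27 and 2.85 (-1.42, but 0.38 against the OT-I control), and H2-T3, the thymus leukaemia antigen, went from -0.59 to a level below background, a bound of -2.47. Class I genes are similar in sequence, so their probes may share signal. Cytokine receptors and their kinases had 6 of 34 higher, 0 lower and 30 of 34 above 0, with Jak1 (1.12) and Stat4 (1.30) beside the receptors already given.

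Signalling genes of the T cell receptor leaned the same way. Of 35 compared, 5 were more than 2-fold higher and 0 lower, 30 were above 0 and the shift was 0.67. Those higher were Dgka (1.53), a brake on diacylglycerol signals, the kinase Fyn (1.38), the phosphatase Ptpn22 (1.30), the adaptor Fyb (1.16) and the kinase Prkcq (1.08). Prkcq was at 4.56 in these CKO cells but at 4.77 in OT-I control cells, so its sign turns with that control. The receptor chains Cd3e, Cd3d and Cd3g differed by 0.54, 0.20 and 0.31, and the kinases Lck and Zap70 by -0.08 and 0.13. Genes that report the strength of receptor signals were split: Cd69 was at 2.42 and 4.54 (2.12) and Dusp2 at 6.22 and 8.11 (1.88), but Nr4a1 was at 4.24 and 4.35, Nr4a2 at -0.34 and -1.76 (-1.42), and Cd5 at 6.31 and 6.84.

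NF-kappaB genes had 8 of 22 more than 2-fold higher, 0 lower and a shift of 0.89. The inhibitors Nfkbia and Tnfaip3 differed by 1.08 and 1.07, Birc3 by 1.39, Traf1 by 1.45, and Nfkbiz by at least 1.86. AP-1 and immediate early genes had 5 of 20 higher, 0 lower and a shift of 0.85, namely Dusp2, Maff (1.70), Zfp36 (-0.55 and 0.94), Ppp1r15a (1.28) and Ier3 (1.21), while Fos and Jun differed by 0.70 and -0.46. Integrins and adhesion molecules had 5 of 24 higher and 0 lower, and costimulatory receptors 5 of 19 higher and 1 lower. The former included Slamf7 (1.59), Cd226 (1.31), Icam1 (1.27) and Itga4, and the latter were Lag3, Ctla4, Cd80 (1.40), Tnfrsf4 and Tnfrsf25 (2.64 and 3.89) against Cd200. In the TGF-beta pathway the inhibitors Smad7 (1.46) and Skil (1.01) were the 2 of 14 past 2-fold, and the receptor Tgfbr2 was at 3.94 and 4.89.

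Metabolic genes of growing cells were lower, by less than the cell cycle genes. Cholesterol synthesis had 7 of 23 more than 2-fold lower, 0 higher and a shift of -0.43, among them Fdps (5.93 and 4.45, -1.48). Nucleotide synthesis had 6 of 25 lower and 1 higher, with a shift of -0.47. Adk, Ctps and Impdh2 differed by -1.44, -1.23 and -1.19, and the gene that was higher was Samhd1 (1.17), which breaks deoxynucleotides down.

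Subunits of the respiratory chain showed a narrow common difference, with 76 of 79 below 0 and a shift of -0.51, but 5 past 2-fold lower, namely Cox6b2 (-1.43), Cox7a1 (-1.35), Uqcr11 (-1.08), Ndufc2 (-1.05) and cytochrome c (Cycs, -1.03). The single subunit above 2-fold was Cox6a2, the heart and muscle isoform of a cytochrome oxidase subunit, at 0.89 and 4.31 (3.43). Glycolysis had 3 of 24 lower and 0 higher, not far from the 9.36% lower among all genes compared. Ldhb, which interconverts lactate and pyruvate, was at 5.83 and 2.15 (-3.67), Tpi1 at 6.81 and 4.97 (-1.85) and Pgk1 at 7.67 and 6.66, whereas the sister enzyme Ldha was at 10.12 and 9.41. Cytosolic ribosomal proteins lay within 0.2 of all genes, with a shift of -0.16 that was 0.03 under quantile normalization, and had 2 of 79 lower, Rps4l (-1.71, but 1.22 against the OT-I control) and Rps27l (-1.21), and 1 higher, Rpl39l (a bound of 3.13). Sqor, which oxidises sulfide in mitochondria, was among the largest differences of the pair, at 2.16 in control and -2.49 in CKO cells (-4.65). The peroxidase Prdx4 was at 3.67 and 1.89, and of 15 genes of sulfide and thiol oxidation these 2 were past 2-fold.

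Of all genes compared 7.04% were more than 2-fold higher and 9.36% lower, and of named genes 5.26% and 9.36%. In lists of chromatin regulators the shares lay under these, with an exception. The share higher among acetyltransferases and bromodomain proteins lay above them. Of 16 histone deacetylases and sirtuins 0 were past 2-fold, and of 29 acetyltransferases and bromodomain proteins 3 were higher, Smarca2 (1.47), Sp140 (2.57 and 3.66) and Bptf (1.05), and 1 lower, the corepressor Trim28 (-1.13). The Polycomb and DNA methylation list held 1 of 25 higher, Ezh1 (1.08), and 2 lower, Cbx2 (-1.42) and the cell cycle gene Uhrf1 (-1.36), with Ezh2 at 4.34 and 3.52. Ezh1 and Ezh2 are the alternative methyltransferases of the same complex. Genes of the Bcl2 family had 0 of 15 past 2-fold. Of 20 p53 targets 3 were lower, the death receptor Fas (-1.42), Phlda3 (-1.27) and Gtse1, and 1 higher, Polk (a bound of 1.13). Among heat shock chaperones Bag3 was at 0.21 and -2.77 (-2.98) and Hspa1a at 2.81 and 0.82 (-1.99). Hspa2 differed by -1.06 and Hspb1 by a bound of -1.25, and with these 4 of 22 were lower and 1 was higher, Dnajb9 (1.07). Of 22 genes of amino acid and unfolded protein stress, 5 were lower and 0 higher. Psat1 (-1.38), Phgdh (-1.05) and Shmt2 (-1.20) make serine and use it, Asns (-1.19) makes asparagine, and Sdf2l1 (-1.09) is a chaperone factor of the endoplasmic reticulum.

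Among named genes well above background on both arrays, the largest difference above 0 was that of Lalba, which encodes the milk protein alpha-lactalbumin, at -0.75 and 3.07, 14.1-fold higher. Its level was also higher in CKO cells of the OT-I, DP and CD4SP pairs, by 5.65, 3.75 and 4.07. Among the brighter genes, those with a mean level at or above the median, Ldhb had the lowest difference; it was 12.7-fold lower here and differed by -3.38, -2.14 and -3.11 in the same pairs. Other low genes were the proteoglycan Gpc1 (3.96 and 0.31), Egfl7 (4.82 and 2.09), the LIM-only protein Lmo4 (4.81 and 2.36) and the RNA-binding protein Ybx3 (5.74 and 3.31). The peptidyl-prolyl isomerase Ppic was at 2.01 in control cells and below background at -4.55 in CKO cells, at least 33.5-fold lower. Ptx3, a soluble pattern recognition molecule, was at 1.20 in control cells and below background in CKO cells, a bound of -4.26.

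Tissue kallikreins, secreted serine proteases encoded in a cluster of near-identical genes, were higher on the CKO array. Of 12 compared, 11 were more than 2-fold higher and 0 lower, with a shift of 2.75; Klk1b5 was at 1.06 and 4.08, Klk1b27 at -1.77 and 1.27 and Klk1b26 at 0.51 and 3.26. Klk8, a more distant member, was at 5.14 and 6.20. The probes of the Klk1b genes can read each other's transcripts, so the number of separate genes behind these values is uncertain. The list's shift was 0.88 (OT-I), -0.31 (DP) and -4.30 (CD4SP) elsewhere, and in the CD8SP pair it was 0.52 once members below background on both arrays were let in. In CD4SP cells Klk1b5 was at 3.55 in control and below background at -4.14 in CKO cells. Cox6a2 shared this order, with differences of 3.43 here, 0.31 in the OT-I pair and -5.03 in the CD4SP pair.

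Transcripts of other cell types were present on both arrays. Of 14 compared myeloid and dendritic genes 2 were more than 2-fold higher, the adaptor Tyrobp (4.13 and 5.54) and the integrin Itgax (1.38 and 2.58), and 1 was lower, C1qb (a bound of -1.13); their summed intensity was 1069 and 1490. The macrophage genes Lyz2, C1qa and C1qc were not well above background on either array, but H2-Eb1 was at 8.32 and 8.50 and Cd74 at 6.36 and 6.67. Other myeloid markers were detected on both arrays, namely Mpeg1 (3.89 and 4.77), Fcer1g (1.94 and 2.83), Itgam (4.89 and 5.58) and Csf1r (4.70 and 4.10). The detected probes of Itgam and of Csf1r disagreed in sign. Siglech, listed as a gene of plasmacytoid dendritic cells, was at 8.13 and 8.69. It was as bright in control DP (9.06) and control CD4SP cells (8.58), so its level does not mark dendritic cells here. Its detected probes differed between genotypes by 0.55 to 2.94, and it is part of the summed intensity. Of 5 compared B cell genes 3 were higher, Blnk (2.21), Cd22 (1.18) and Fcrla (1.06), while Cd79b was at 3.04 and 2.93. Ms4a1, also a B cell marker, was below background in control cells but well above background in CKO cells, a bound of 0.62. The defining genes Cd79a, Pax5 and Ebf1 were not well above background on either array. The summed intensity of the B cell list was 9.86 and 12.9. The compared natural killer genes numbered 3 (summed intensity 1.80 and 2.86), with Klra1 at 0.42 and 1.27 Klre1 below background in control cells, and Zbtb16 lower (-1.13). Of 3 gamma delta T cell genes, Cd163l1 was higher (1.46, but -5.68 against the OT-I control) and 0 were lower. Granulocyte, erythroid and stromal lists had 1 of 5 lower (Camp, a bound of -1.22), 0 of 5 past 2-fold and 1 of 4 higher (Pecam1, 1.15). The part of these cells in the interferon, effector and class I differences was not tested. The Y-linked Eif2s3y, Uty and Ddx3y were well above background on both arrays, and no level of them was well above background on either OT-I array.

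The OT-I pair offers the same genotype contrast on a single slide and shares no array with the pair described here. It differs in its fixed receptor, its older mice and its sex-linked transcripts, with Xist detected and Y-linked genes not. It had 9.18% of genes more than 2-fold higher and 13.1% lower. Of the genes higher here, 689 (47.4%) were also higher there, which is 36.2% of those higher in the OT-I pair. Of those lower here, 1037 (53.6%) were lower there, or 38.2% of the OT-I list, and 58 genes were past 2-fold in opposite directions. All 39 replication genes, all 33 mitotic genes and all 25 histone genes lower here were also lower in the OT-I pair, as were 3 of 3 DP-stage genes.

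The sizes of the shifts differed between pairs. Mitotic genes shifted by -1.04 here and -3.29 in the OT-I pair, replication genes by -1.19 and -2.32, and DP-stage genes by -0.58 and -2.24. The maturation list shifted by 1.02 and 1.07, the type I interferon list by 1.02 and 1.32 and the interferon gamma list by 1.22 and 0.94. Chemokine receptors (1.14 and 0.42) and kallikreins (2.75 and 0.88) had the greater value here. Among effector genes, Gzmb differed by 3.26 here and 0.48 there, while Ifng differed by 3.54 and by at least 2.98.

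**Figure D4:**
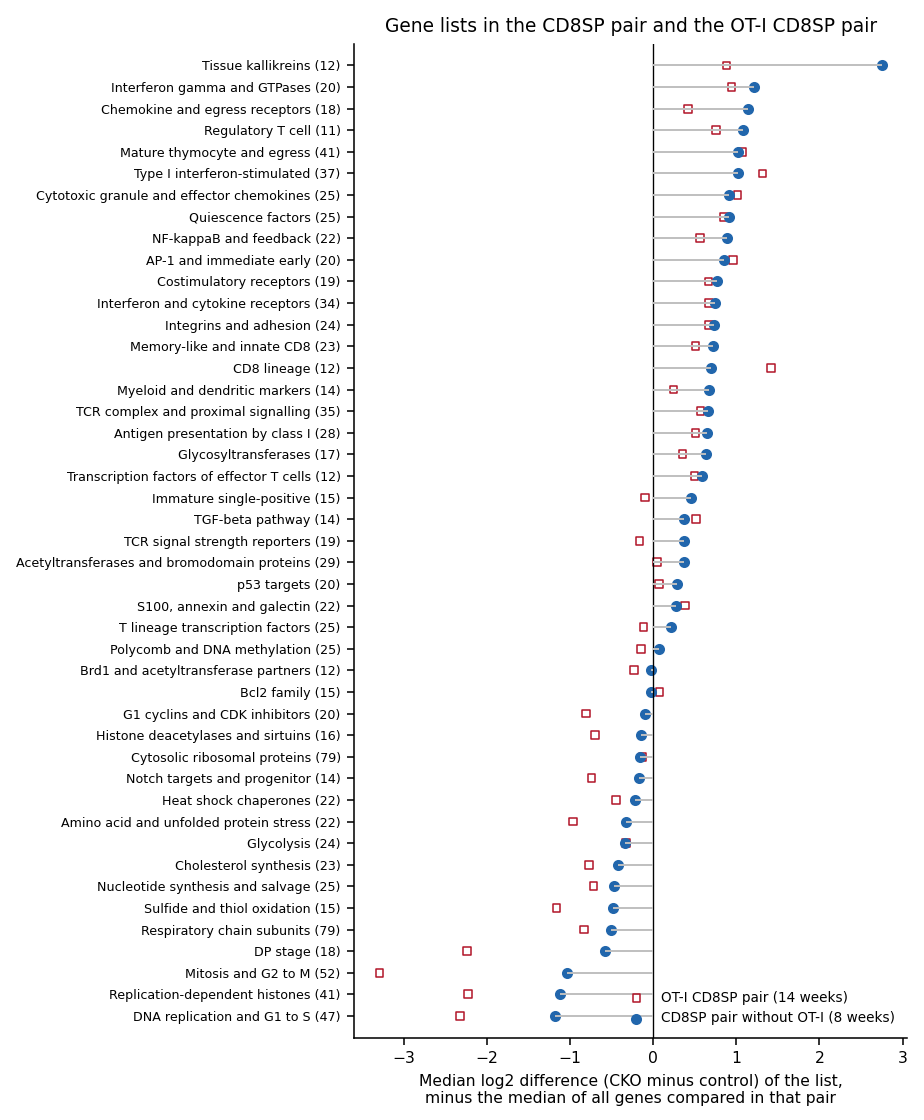
Shift of each list with at least 10 compared genes (horizontal axis, the list's median log2 difference, CKO minus control, less the median of all genes compared in the same pair) in the CD8SP pair (filled circles) and the OT-I CD8SP pair (open squares); numbers in parentheses are genes compared in the CD8SP pair. Cell cycle lists are lowest in both pairs, and the kallikrein list is highest in the CD8SP pair.

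**Figure D5:**
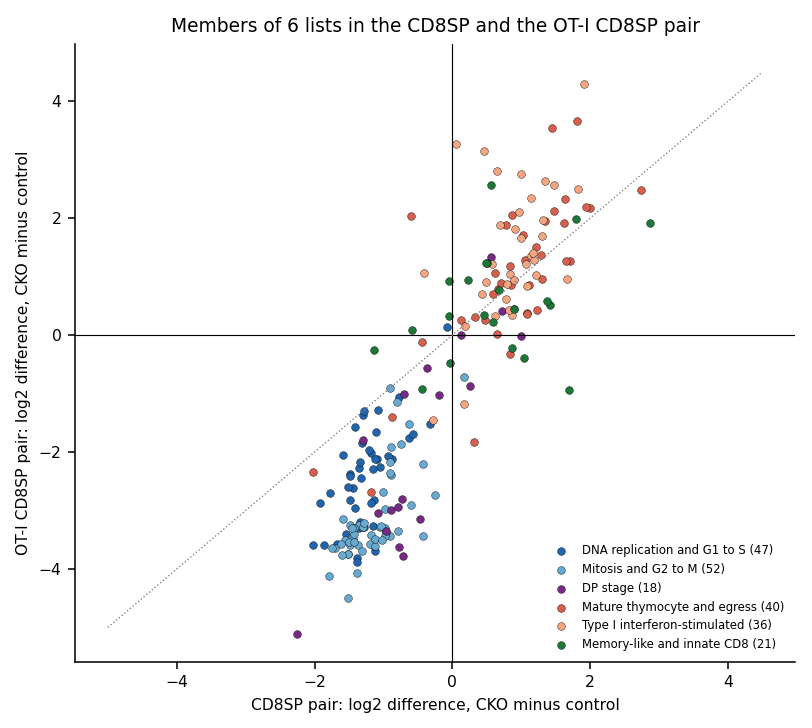
Log2 difference (CKO minus control) of each member of 6 lists in the CD8SP pair (horizontal axis) and the OT-I CD8SP pair (vertical axis); the dotted line marks equal differences. Cell cycle and DP-stage genes lie mostly below the dotted line in the lower left, and maturation and interferon genes lie mostly in the upper right.

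Whether the genotype difference of these CD8SP cells departs from that of the other populations was tested with limma across 8 arrays, with terms for population, genotype and the CD8SP CKO array, which leaves 2 residual degrees of freedom. Of 22625 genes tested, 0 departed at an adjusted p under 0.05 (limma, Benjamini-Hochberg), and 617 had an unadjusted p under 0.05; the smallest adjusted p was 0.9998. In simulated data the same test recovered 0 of 100 genes with a departure of 2 on the log2 scale and 36 of 100 with a departure of 4. Gzmb departed from the mean of the other 3 pairs by 3.32 (SE 1.44) and Ifng by 1.69 (SE 1.54), and neither was called (adjusted p = 0.9998, limma). Unlike the differences given above, the test used levels not raised to the floor, so signals below background entered it as they were. This held for Gzmb on both DP arrays and for Ifng on the control arrays of the DP and OT-I pairs. With 0 genes called, none of the differences given above is shown to belong to polyclonal CD8SP cells in particular.

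The OT-I control array of slide 2 was also put in place of the control of slide 1. Slide then no longer differs, but age, OT-I and sex-linked transcripts (Xist and the Y-linked genes) do. With this control the shift was -1.18 for replication genes, -1.29 for mitotic genes and -1.03 for histones. It was 1.49 for maturation, 2.19 for type I interferon, 1.78 for interferon gamma and 1.78 for cytotoxic genes. The DP-stage list was at -0.02 with this control, against -0.58, the list of cells just after selection at -0.14, against 0.46, and the myeloid and dendritic list at 2.12, against 0.67. Of 54 lists, 31 moved by over 0.2 and 2 changed sign in this comparison, which keeps the same CKO array.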

How the data were processed

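RNA of sorted thymocytes was measured on 1-colour Agilent arrays of design 028005, 1 array per group. The deposited scanner files give the processed intensity of each spot, background-subtracted and detrended by Agilent Feature Extraction 10.7.1.1 per the file headers, with no scaling between arrays. A deposited table of the same intensities, on a linear scale and divided by about the 75th percentile of each array, was taken to log2 as an alternative. The labels name a biotinylated cRNA protocol, whereas the files are those of a Cy3 scan. Of each array's spots, 3671 control spots were left out, 59305 were kept and 0 were saturated. Signals were averaged per probe, taken to log2 and set relative to the 75th percentile of the array.

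Of the probes, 26715 carried 20258 symbols, updated through RefSeq accessions (GRCm38.p6), and 28822 had no symbol and stand as single entries. For genes with several probes, the brightest on average was used. A probe counted as well above background where most of its spots were flagged so. The pair was compared by fold, with no test. limma 3.58.1 in R 4.3.3 tested the departure of the pair from the other 3 pairs and was tested on simulated data.

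Gene groups came from 55 lists; 1196 listed genes were compared and 107 stood in several lists. The genes compared and the lists were chosen with earlier results of these data known. Named genes are Brd1, Cd4, Cd8a, Cd8b1, the 10 highest and 10 lowest measured on both arrays among the brighter genes, the 5 highest and 5 lowest bounds, the 4 largest of each list, all members of lists with up to 12 compared genes, 5 each way opposite in the OT-I pair, the 10 neighbours on each side of Brd1 and the defining markers of cell types; other members were named after their values were seen. The list of T cell receptor variable genes matched 0 named probes. Promoter stretches come from RefSeq. Some members of the lists, though counted in them, are not reported here by name.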

Additional observations from a re-analysis of the deposited data

Results flagged for a closer look

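Of 243 genes followed through the processing alternatives, 27 were more than 2-fold different here and more than 2-fold different in the opposite direction in another pair. Each pair has 1 array per genotype, so the difference between any single pair of pairs was not tested; the departure of these genes from the mean of the other 3 pairs was not called by limma.

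Against the OT-I pair, genes higher in CKO CD8SP cells here and lower there were Esm1 (2.37 here, a bound of -2.65 there), Gm525 (2.15 and -2.76), Ehd3 (1.55 and -3.15), Il2ra (a bound of 1.52, and -2.71), Zcchc18 (1.52 and -2.04), the glycosyltransferase Gcnt1 (1.21 and -2.32) and Cd163l1 (1.46 and -2.05). Genes lower here and higher there were Gprc5b (-2.23 and a bound of 3.73), the inducible chaperone Hspa1a (-1.99 and 2.79), Fat2 (-1.89 and 1.46), Cd7 (-1.32 and 1.40) and Odf3b (-1.46 and 1.32).

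Against the CD4SP pair, Cox6a2 (3.43 here, -5.03 there), Tff1 (a bound of 3.11, and -4.74) and the kallikreins Klk1b5 (3.02 and a bound of -6.99), Klk1b26 (2.75 and -4.34), Klk1b24 (2.74 and -5.34), Klk1b27 (3.04 and -4.33) and Klk1b8 (2.75 and -4.70) were opposite. So were the effector genes Gzmb (3.26 and -2.21), Cxcr3 (1.42 and -1.06), Il18r1 (a bound of 1.69, and -2.27) and Slamf7 (1.59 and -1.44). The other opposite genes were S100a6 (1.94 and -1.26), Hhex (1.64 and -1.72), Tyrobp (1.41 and -2.35), Cd163l1 (1.46 and a bound of -1.20) and E2f7 (-1.87 and 1.60).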

How the results depend on the processing

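The count of genes past 2-fold was within 1.5 times its value under the alternatives run, except as follows. Normexp background correction with an offset of 50 gave 611 higher and 583 lower, no detection filter gave 2990 and 4316, a threshold of 1.5-fold gave 3205 and 4733, and a threshold of 4-fold gave 188 and 268. Dim values not raised to the floor, an alternative chosen after seeing the data, gave 2117 and 2129, which is within 1.5 times. In 23 genes the probe used was below background where another probe of the gene was not, and raising it to the floor, also chosen after seeing the data, gave 1451 and 1927. limma called 0 genes under every alternative run except without a detection filter, where it called 114. With the OT-I control in place of the slide 1 control, differences past 2-fold turned for some followed genes. They were Il2ra (-1.25), Gprc5b (0.92), Ccr9 (-0.15), H2-T10 (0.38), Gcnt1 (-0.63), Lmo1 (0.67), Rps4l (1.22) and Cd163l1 (-5.68). Named genes that were not followed are not covered by these. The shift turned for T lineage transcription factors (-0.16) and genes of cells just after selection (-0.14). The stromal shift turned without a detection filter (-0.020). The cause was not tested, and genotype, age, sex-linked transcripts and OT-I differ in that comparison. Under normexp 51 of 243 followed gene differences lost the 2-fold mark with the sign kept, and with the OT-I control 31 did. List shifts that moved by over 0.2 numbered 11 under normexp, 31 with the OT-I control and 42 without a detection filter. With the percentile over detected probes 0 of 54 moved so far. With 1 array per group no array could be left out of the pair, and dim genes, whose probe signal is close to background, are given as bounds. No paired analysis was possible because the labels give no replicate numbers and the CD8SP pair is 1 array against 1; the limma test of departure blocks on population and gives no test of the pair itself.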

Other observations

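Some families of surface and secreted proteins, part of whose members also stand in the lists above, gave mixed values in CD8SP cells. Of 22 S100, annexin and galectin genes, S100a4, S100a6 and Anxa3 (a bound of 1.31) were more than 2-fold higher in CKO cells and Lgals1 and Anxa2 lower, while the abundant S100a10 and Anxa6 were at 5.33 and 5.92 and at 6.78 and 7.47. In the Ly6 family, whose members are similar in sequence, 2 of 9 were higher, Ly6d (6.67 and 8.22) and Ly6a (2.59 and 3.67), whereas Ly6e, an abundant interferon-stimulated member, was at 8.45 and 8.17. Of 17 glycosyltransferases 2 were higher, Fut7 (-1.36 and 0.90), which makes selectin ligands, and Gcnt1 (-2.36 and -1.15, a difference that was -0.63 against the OT-I control), which starts branched O-glycans, and 1 was lower, Mgat5 (a bound of -1.37). Fut7 also differed by 3.70 in the OT-I pair.

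Among 9025 compared probes without a gene symbol, 842 (9.33%) were more than 2-fold higher in CKO cells and 845 (9.36%) lower, against 5.26% and 9.36% of the 11619 named genes. Those designed to a stretch of chromosome rather than to an annotated transcript numbered 4124, of which 352 were higher and 422 lower.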
